A study of Drosophila melanogaster with 4 samples.

Results

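The 5 genes described here, bel, mub, orb2, stau and Tob, encode regulators of messenger RNA that act in the fly nervous system, and they are 5 of the 1449 genes with a value on the arrays. They were taken by name, through the symbol or the current gene ID of each probe, and they had been picked with their measured response to pilocarpine in view. Their ratios are therefore a description, given without p-values. The flies were Drosophila melanogaster males of the Oregon-R wild type, kept unmated. For 7 days they were fed 1.5 mg/ml of pilocarpine, which activates muscarinic acetylcholine receptors, or normal food alone, and RNA was taken from their heads. Flies were 3 to 4 days old when treatment began, and a vial held 30 of them. RNA came from 8 pools of frozen heads, and each of 4 two-colour cDNA arrays set a pool of pilocarpine-fed flies against the normal-food pool kept in parallel with it, which makes 4 biological replicates. Pools hold the heads of many flies, so the spread between arrays is a spread between pools and not between animals.

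Many messenger RNAs of neurons are packed into granules, carried along axons and dendrites while silent, and translated near synapses on demand. RNA helicases, RNA-binding proteins of the KH and CPEB families, double-stranded RNA-binding transport proteins and the deadenylases that shorten poly(A) tails take part in this control. Among the 5 genes, bel (Belle) encodes the fly counterpart of the DEAD-box helicase DDX3, which unwinds RNA during translation. The gene mub (mushroom-body expressed) encodes a KH-domain protein related to the mammalian poly(C)-binding proteins. The product of orb2 is a CPEB protein that is needed for long-term memory in flies. The product of stau (Staufen) binds double-stranded RNA and localises messages in oocytes, neuroblasts and neurons. Tob belongs to the BTG/Tob family, whose mammalian members recruit the CCR4-NOT deadenylase. Tob is an adaptor without a classical RNA-binding domain, so the 5 genes share a role in control of messages rather than a domain.

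Each value is a log2 ratio, pilocarpine over normal food, with each array centred on its median so that 0 marks the middle of the array. Treated RNA carried Cy5 on replicates 1 and 2 and Cy3 on replicates 3 and 4. The labels do not say which channel is the numerator of the deposited ratio. It was read as Cy5 over Cy3, the default of the scanner software, and replicates 3 and 4 were turned in sign. This direction rests on that default and is not settled, so means are also given for the other reading. In the other reading the treated RNA is the numerator on every array and replicates 3 and 4 keep their deposited sign. The RNA is that of whole heads, so fewer cells of a type and less RNA per cell cannot be told apart.

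All 5 genes had a value on all 4 arrays, each from 1 probe printed as 2 adjacent spots. A further 2 probes list orb2, and neither had a value on any array. The current RefSeq table (Release 6 plus ISO1 MT) lists 12 transcripts for mub, 7 for orb2, 4 for Tob, 3 for stau and 2 for bel. One ratio per gene does not separate these isoforms, among them the short Orb2A and the long Orb2B forms of orb2.

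With the ratio read as Cy5 over Cy3, bel and mub were higher with pilocarpine on all 4 arrays, orb2 on 3 of 4, and stau and Tob were lower on all 4. The means were 0.80 for mub, 0.67 for bel, 0.34 for orb2, -0.30 for stau and -0.35 for Tob. In the other reading every one of these means had the opposite sign, at -0.65 for mub, -0.26 for bel, -0.23 for orb2, 0.08 for stau and 0.10 for Tob, and none of the 5 genes kept 1 sign on all arrays. The means of bel, mub and orb2 thus lay on one side of 0 and those of stau and Tob on the other in both readings, while which side is higher with pilocarpine depends on the reading. As deposited all 5 means were smaller than their SDs, with stau at 0.08 ± 0.41 and Tob at 0.10 ± 0.42 (SD, n = 4 each).

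**Figure D1:**
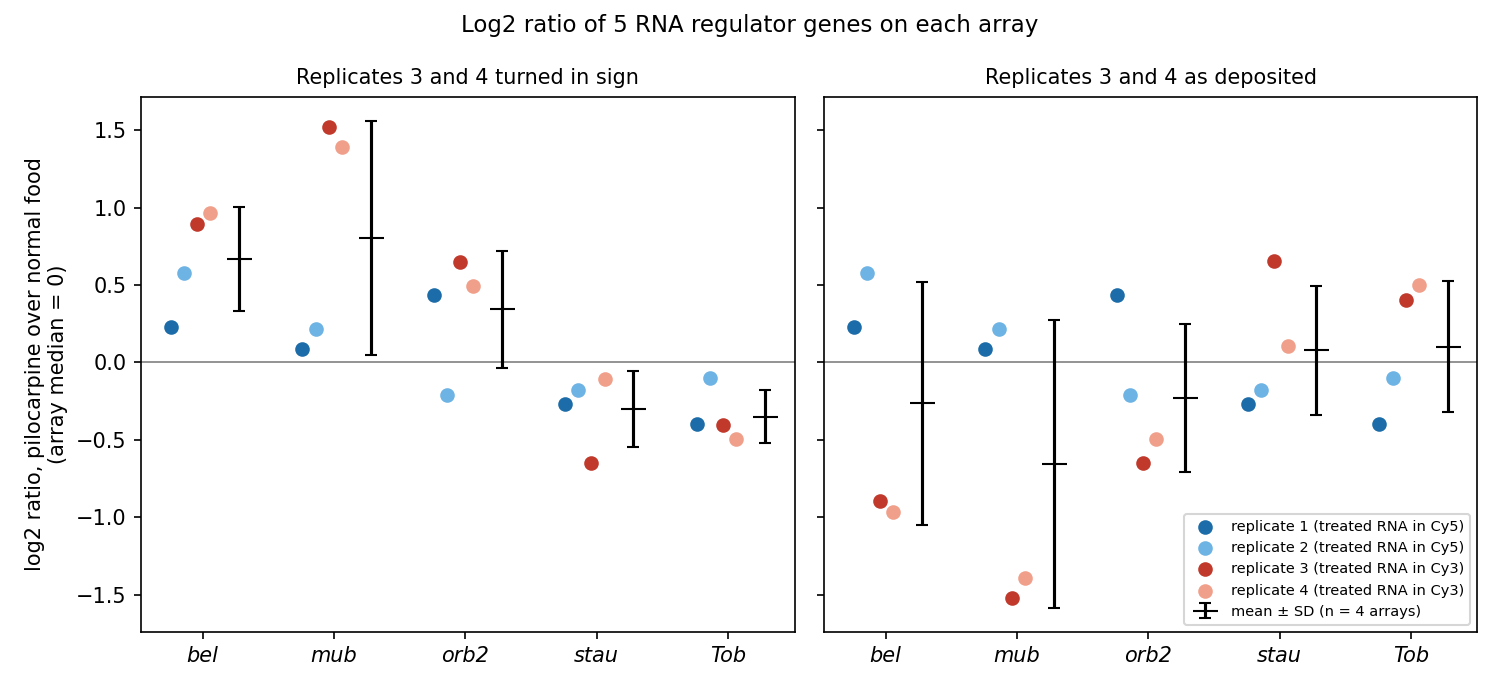
Log2 ratio of pilocarpine over normal food (vertical axis, array median at 0) of bel, mub, orb2, stau and Tob on each array, with replicates 3 and 4 turned in sign at left and as deposited at right. Points are single arrays, black bars are the mean ± SD over 4 arrays. At left mub lies between 0.09 and 1.52 and Tob between -0.50 and -0.10, and at right each gene has points on both sides of 0.

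The helicase gene bel had log2 ratios of 0.23, 0.58, 0.90 and 0.96 on replicates 1 to 4. All were above the array median, with replicates 3 and 4 above replicates 1 and 2. The mean was 0.67 ± 0.34 (SD, n = 4), a 1.59-fold higher level with pilocarpine, and ranked 19th from the top among 1444 genes measured on at least 3 arrays. As deposited the mean was -0.26 ± 0.78 (SD, n = 4), which ranked 325th by size. With replicates 3 and 4 turned but without centring, bel was at 0.09, 0.10, 1.19 and 1.38, so it was also above 0 on all 4 arrays there.

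The spots of bel disagreed more than those of most probes. On replicate 4 the first spot was at 0.22 and the second at 1.71. This difference of 1.49 exceeded that of 99.85% of the probes with 1 listed gene on that array. On replicates 2 and 3 the spots differed by 0.62 and 0.44, more than in 95.02% and 95.42% of such probes, and on replicate 1 by 0.16. Both spots of bel were above the array median on every array. Taken alone, the first spot averaged 0.60 ± 0.49 and the second 0.74 ± 0.67 (SD, n = 4 each).

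The KH-domain gene mub had log2 ratios of 0.09, 0.21, 1.52 and 1.39 on replicates 1 to 4. The arrays fell into a pair near 0 and a pair far above it, and the pairs are those of the dye orientation. Over all 4 arrays mub averaged 0.80 ± 0.76 (SD, n = 4), a mean close to its SD and rank 11 from the top among 1444 genes. With treated RNA in Cy5 the mean was 0.15 and with treated RNA in Cy3 it was 1.46 (n = 2 each). The gap of 1.31 between the orientations was wider than that of 99.7% of the 748 genes measured on all 4 arrays, where the median gap was 0.24. With the sign as deposited the gap was 1.61, wider than for 99.1% of genes, and mub averaged -0.65 ± 0.93 (SD, n = 4), which ranked 7th among 1444 genes by size. As deposited the gaps of bel, orb2, stau and Tob were wider than for 98.3%, 89.2%, 86.0% and 89.7% of genes. As turned they were wider than for 83.3%, 78.1%, 33.6% and 41.8%. For mub no reading removes the contrast between the array pairs. In it, dye orientation cannot be told apart from other differences between the pairs.

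The spots of mub were at 1.38 and 1.66 on replicate 3, a difference larger than in 83.5% of probes with 1 listed gene, and at 1.43 and 1.35 on replicate 4, larger than in 36.3%. On replicates 1 and 2 they differed by 0.12 and 0.10, more than in 51.9% and 32.5% of such probes. The 2 spots alone gave 0.78 ± 0.73 and 0.83 ± 0.79 (SD, n = 4 each), and the SD between arrays exceeded the spot difference on every array. With replicates 3 and 4 turned but without centring, mub was at -0.05, -0.27, 1.81 and 1.81, below 0 on replicates 1 and 2.

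The CPEB gene orb2 had log2 ratios of 0.43, -0.21, 0.65 and 0.49 on replicates 1 to 4. Replicate 2 alone was below the array median. The mean was 0.34 ± 0.38 (SD, n = 4), a 1.27-fold higher level that did not exceed the spread between arrays, and it was 0.53 without replicate 2. As deposited it was -0.23 ± 0.48 (SD, n = 4). The spots of orb2 differed by 0.09 to 0.10 on all 4 arrays, less than the median of 0.11 to 0.17 over the probes with 1 listed gene. The low value of replicate 2 was thus shared by both spots, at -0.16 and -0.25.

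The Staufen gene stau had log2 ratios of -0.27, -0.18, -0.65 and -0.11 on replicates 1 to 4. Replicate 3 was the lowest, and the mean was -0.30 ± 0.24 (SD, n = 4), a ratio of 0.81 between pilocarpine and normal food. Without replicate 3 it was -0.18. Replicate 4 rests on spots of opposite sign, at -0.55 and 0.33, a difference larger than in 99.2% of probes with 1 listed gene. The first spot alone averaged -0.39 ± 0.33 and the second -0.21 ± 0.37 (SD, n = 4 each). Read the other way, stau averaged 0.08 ± 0.41 (SD, n = 4). With replicates 3 and 4 turned but without centring, stau was at -0.40, -0.66, -0.36 and 0.31, so its shared sign on 4 arrays arose only with centring.

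Tob had log2 ratios of -0.39, -0.10, -0.40 and -0.50 on replicates 1 to 4. The mean was -0.35 ± 0.17 (SD, n = 4), a ratio of 0.78 between pilocarpine and normal food. This SD was the narrowest of the 5 genes, whereas as deposited that of stau, 0.414, was narrower than that of Tob, 0.422. Only 16.0% of the genes on 4 arrays had a smaller SD, and the median SD was 0.30. The mean ranked 61st from the bottom among 1444 genes, and as deposited it ranked 886th by size. Spots of Tob had the same sign except on replicate 2, where they were at 0.03 and -0.23. Read the other way, Tob averaged 0.10 ± 0.42 (SD, n = 4), and without centring it was below 0 on all 4 arrays, at -0.53, -0.58, -0.11 and -0.08.

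**Figure D2:**
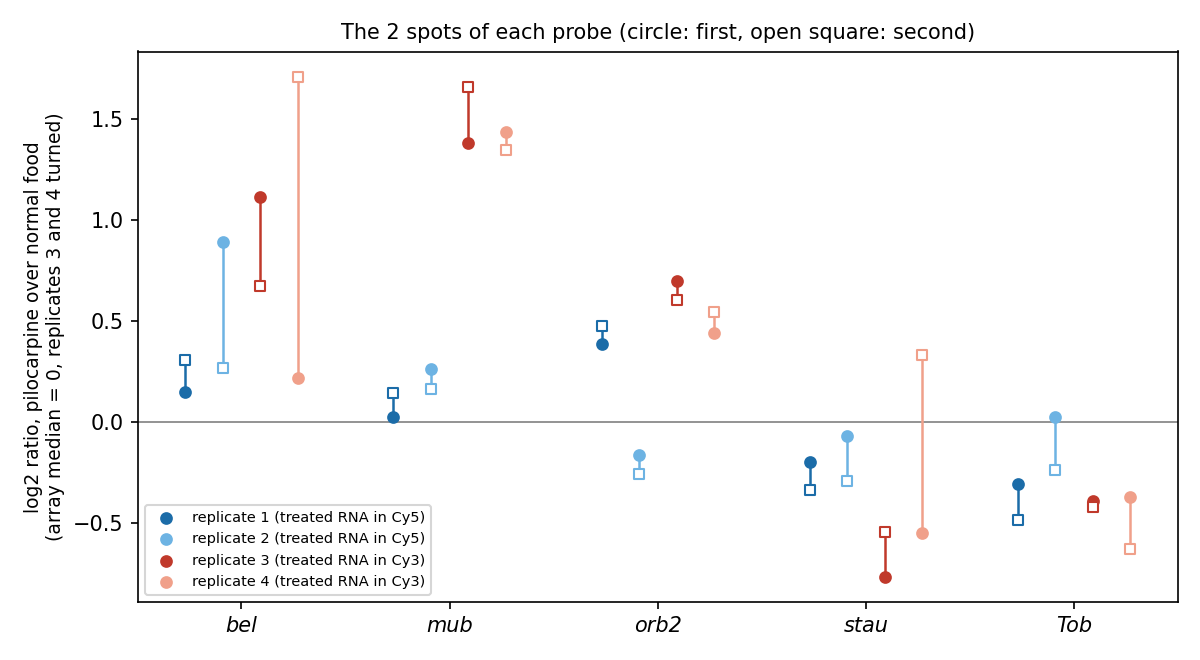
Log2 ratio of pilocarpine over normal food (vertical axis, array median at 0, replicates 3 and 4 turned) of the 2 spots of each probe, joined by a line, for each gene and array. The spots of bel and stau on replicate 4 lie 1.49 and 0.88 apart, whereas those of orb2 lie 0.09 to 0.10 apart on all arrays.

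In order of their means, neighbouring genes mostly lay within each other's spread. The means of mub and bel differed by less than either SD, as did those of bel and orb2 and those of stau and Tob. The step between orb2 and stau was larger than both SDs. On replicates 1, 3 and 4 each of bel, mub and orb2 was above both stau and Tob, and on replicate 2 orb2 lay below both. The mean of bel, mub and orb2 exceeded that of stau and Tob by 0.58, 0.34, 1.55 and 1.25 on replicates 1 to 4. In the other reading these differences were 0.58, 0.34, -1.55 and -1.25. The separation was thus wider on the arrays with treated RNA in Cy3 in either reading.

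**Figure D3:**
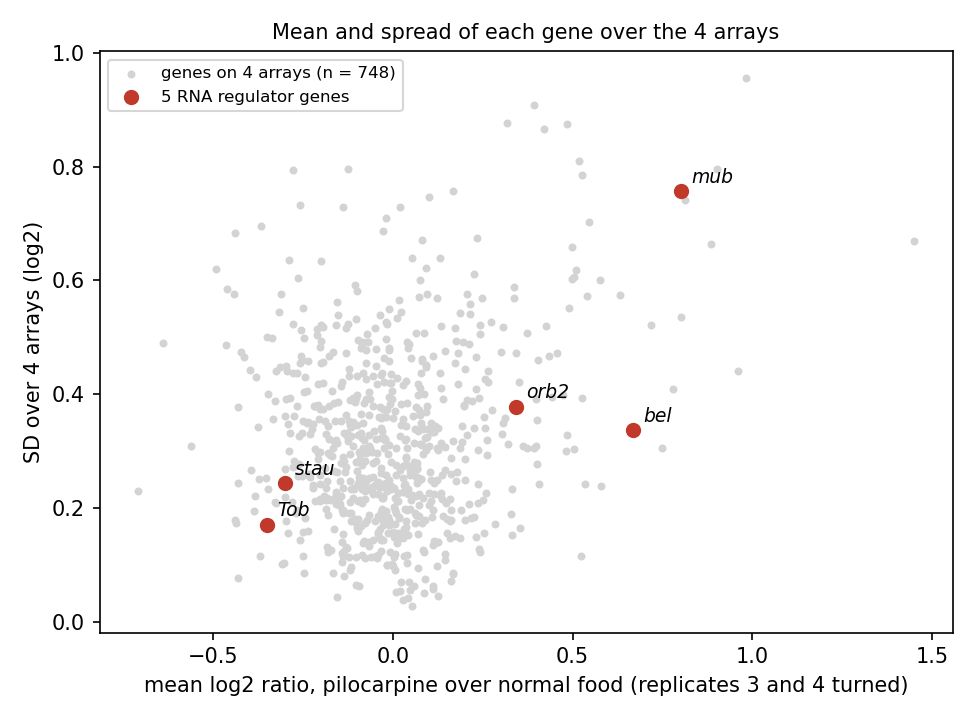
Mean log2 ratio of pilocarpine over normal food (horizontal axis, replicates 3 and 4 turned) and SD over arrays (vertical axis) of the 748 genes measured on all 4 arrays, with bel, mub, orb2, stau and Tob marked. The gene mub lies at 0.80 with an SD of 0.76 among the most variable genes, and Tob at -0.35 with an SD of 0.17.

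Across the series 4 of the 5 genes had the same sign on all 4 arrays. Of the 748 genes with 4 values, 7.35% were higher and 6.82% lower on all 4, so 14.2% kept 1 sign. In the other reading 0 of the 5 genes did, while 15% of genes kept 1 sign, 5.88% higher and 9.09% lower. With replicates 3 and 4 turned but without centring, 2 of the 5 kept 1 sign, bel and Tob, where 4.14% of genes did, 2.67% higher and 1.47% lower. Nothing can be read from these counts, since the genes were picked on this response. In limma's fit over 1444 genes 0.139% passed at an adjusted p under 0.05, namely apolpp, the lipoprotein gene of the fat body, and Obp19c, an odorant-binding protein gene, and 0 of the 5 did. Without replicate 2 or without replicate 4 neither apolpp nor Obp19c passed, and as deposited they were at -0.24 and 0.34. Read the other way, 0% passed (limma, 126 genes at an unadjusted p under 0.05).

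The genes with the most similar pattern were sought among the 747 other genes on all 4 arrays by the root mean square difference from each gene over the 4 arrays, a measure that is the same in both readings. Nearest to bel were Klp59C at 0.25, CG16898 at 0.27 and Prps, an enzyme of phosphoribosyl pyrophosphate synthesis, at 0.27. Among the 5 genes mub was the closest to bel, at 0.43.

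The pattern of mub was shared most closely by Tdg, a DNA glycosylase gene, with a difference of 0.16. Tdg had log2 ratios of -0.07, 0.48, 1.53 and 1.30, and so the same split by dye orientation as mub. It averaged 0.81, and -0.61 as deposited. The next nearest genes, CG2875 and the stress-sensor transcription factor gene Atf6, differed from mub by 0.32 and 0.33. Atf6 was at -0.07, 0.04, 1.04 and 1.02, again near the array median where treated RNA carried Cy5, and it averaged 0.51, and -0.52 as deposited.

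Nearest to orb2 were CG16904 at 0.19, Asator, a kinase gene, at 0.20 and the mitochondrial ribosomal protein gene mRpS11 at 0.21. Nearest to stau were CG42361 at 0.06, Atox1, a copper chaperone gene, at 0.08 and Osi17 at 0.09. Nearest to Tob were CG17144 at 0.12, CG7231 at 0.13 and CG8738 at 0.14. Between stau and Tob the difference was 0.24, the smallest of any pair among the 5 genes, and between mub and Tob it was 1.38, the largest.

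Of 161 other genes of RNA and translation control on 7 lists, 39 were measured on at least 3 arrays, and their median log2 ratio was 0.01, against -0.01 over all 1444 genes. In limma's fit over all genes, with replicates 3 and 4 turned, 0 of the 39 rose and 0 fell (lowest adjusted p = 0.749). In that fit 0 had an unadjusted p under 0.05, and as deposited 0 passed the adjusted threshold. With replicates 3 and 4 turned, none of the 24 measured on all 4 arrays kept 1 sign, against 14.2% of all genes. This does not hold for the other reading, where 15% of all genes kept 1 sign. There gw, with a mean of -0.31, and qkr54B, with a mean of -0.19, were below the array median on all 4 arrays. The lowest mean was -0.32 and the highest 0.73. As deposited their median was -0.06, with means between -0.535 and 0.25, 11 above 0 and 28 below. Since the 5 genes were picked on their response, their values and those of the lists are not a like comparison.

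Of 19 listed DEAD-box helicase genes, the family of bel, 4 were measured, and none passed. The list does not hold every helicase gene on the arrays. CG10077 was at 0.35 ± 0.42 and eIF4A, the helicase of the cap-binding complex, at 0.07 ± 0.34, while pit was at -0.20 ± 0.48 (SD, n = 4 each). CG7483 was at -0.17 ± 0.35 (SD, n = 3). As deposited the 4 genes were at -0.21, -0.21, 0.21 and 0.21 in the same order. The mean of bel was above those of these 4 genes as turned and below them as deposited. Since bel was picked on its response, this is not a like comparison.

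Of 37 listed translation factor genes, on which helicases of the DDX3 kind act during initiation, 12 were measured. Of these, 7 had a mean above 0 and 5 below, and none passed. The scaffold gene eIF4G1 was at 0.30 ± 0.33 (SD, n = 4) and eIF4B, a cofactor of eIF4A, at -0.31 ± 0.23 (SD, n = 3). The subunit gene eIF3a was at 0.73 ± 1.36 (SD, n = 3), with 2.22 on replicate 3 and -0.45 on replicate 4, so the mean was within its spread. As deposited eIF4G1 was at -0.19, eIF4B at -0.28 and eIF3a at -0.45, and 3 of the 12 means were above 0 and 9 below.

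Of 12 listed deadenylation genes, 6 were measured. Of these 6, 3 had a mean below 0 and 3 above, and none passed. They were Not1, Not3, Not10, Not11 and Pop2 of the CCR4-NOT complex, which mammalian Tob proteins bind, and PAN3 of the separate PAN2-PAN3 deadenylase. The scaffold gene Not1 was at -0.30 ± 0.13 and Not11 at -0.32 ± 0.21 (SD, n = 3 each). Not10 was at -0.28 ± 0.44 (SD, n = 4) and Not3 at 0.17 ± 0.07 (SD, n = 3). Not1 was below the array median on each of its 3 arrays, at -0.43, -0.29 and -0.16. As deposited Not1 was at -0.19, Not11 at -0.0037, Not10 at 0.14 and Not3 at -0.07, with 1 of the 6 means above 0 and 5 below.

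Of 5 measured genes matched from the list of translational repressors and granule proteins none passed. Caprin (Capr), a granule protein, was at 0.32 ± 0.47, and egl, which links messages to the dynein motor, at 0.21 ± 0.21 (SD, n = 3 each). The Y-box protein gene yps was at -0.14 ± 0.15 (SD, n = 4) and the repressor gene brat at -0.10 ± 0.31 (SD, n = 3). As deposited Capr was at -0.0058, egl at -0.05, yps at -0.12 and brat at 0.17. The gene DCP2 of the same list was measured too, at 0.07 ± 0.20 (SD, n = 4) as turned. Its symbol was listed with other capitals and not matched, so it is in none of the counts of listed genes.

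Of 32 other listed genes for RNA-binding proteins 7 were measured, and of 13 listed for small RNA silencing 3 were. None of them passed either. The splicing factor gene hfp was at 0.21 ± 0.33 and the KH-domain gene qkr54B at 0.11 ± 0.25 (SD, n = 4 each). The KH-domain gene qkr58E-3 was at 0.09 ± 0.75 (SD, n = 3), and the hnRNP gene glo at -0.15 ± 0.12 (SD, n = 3). The genes loqs, piwi and gw of small RNA silencing were at -0.18, -0.06 and 0.06 (n = 4 each). As deposited hfp was at -0.21, qkr54B at -0.19, qkr58E-3 at -0.535, glo at -0.10, loqs at -0.05, piwi at 0.19 and gw at -0.31. Of the 19 listed memory and plasticity genes only S6k and milt were measured, at -0.07 and -0.04 (n = 4 each), and at -0.055 and 0.02 as deposited. The list does not hold every such gene on the arrays.

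**Figure D4:**
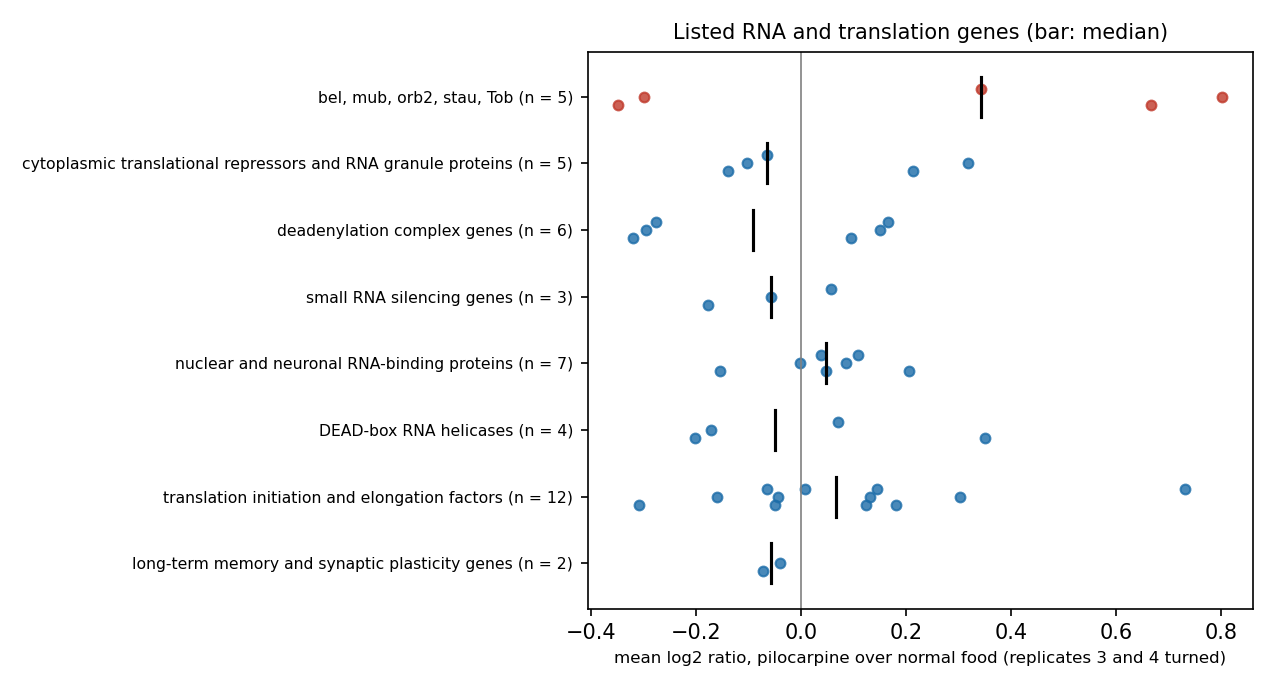
Mean log2 ratio of pilocarpine over normal food (horizontal axis, replicates 3 and 4 turned) of bel, mub, orb2, stau and Tob in the top row and of the measured genes of 7 lists below it. Each point is a gene and each black bar a list's median. The means of mub at 0.80 and bel at 0.67 lie to the right of every listed gene except eIF3a at 0.73, which lies between them. Since mub and bel were picked on their response, this is not a like comparison. As deposited mub is at -0.65, bel at -0.26 and eIF3a at -0.45.

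Ratios carry no level, so the labelled tissue could be checked only by which markers had a value on at least 3 arrays. This held for 2 of 8 photoreceptor markers, 0 of 6 neuronal ones, 1 of 4 glial ones, 4 of 6 of the head fat body and 3 of 4 of muscle. It also held for 1 of 4 testis and 2 of 4 midgut markers, tissues that a head does not hold. The median of the 4 fat body markers was 0.15, with apolpp at 1.45, and that of the 3 muscle markers was -0.27. The testis marker ocn was at 0.52. As deposited the fat body median was -0.22, the muscle median -0.09 and ocn at 0.60. The part of these tissues in the values of the 5 genes was not tested. The arrays measured 4428 to 6392 spots, fewest on replicate 2.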

How the data were processed

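Per the labels and the design text, spots were quantified in GenePix Pro 6.0, normalized in Acuity 4.0 and filtered on saturation, flags, uniformity and signal to noise, and the authors took them to SAM 3.0. Each deposited value is a log2 ratio between channels, not centred (medians -0.14, -0.48, -0.29 and -0.42 on replicates 1 to 4). The log base was read from the ceiling of 16.61, the log2 of 100000, and 11 such cells were dropped. Paired spots, then probes of a gene, were averaged. Gene IDs were matched to RefSeq, else by transcript accession (29 measured probes had an unmatched ID). Each array was centred on its median over probes, and replicates 3 and 4 were turned in sign. The test over the 1444 genes with 3 or 4 values was limma's (version 3.58.1, R 4.3.3; lmFit and eBayes, two-sided, Benjamini-Hochberg, threshold 0.05), after a check on simulated data. The 5 genes and the lists were chosen with earlier results of these data known. Besides the 5 genes, the text names the 3 genes nearest to each, up to 4 genes a list with the largest absolute means, genes past the threshold, the marker ocn and the unmatched DCP2. The median SD over genes was 0.30. The number of arrays limits precision, since intensities were not used here. Alternatives were the other reading, centring, single spots, arrays left out, dye term, filter, ceiling and variance model.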

Additional observations from a re-analysis of the deposited data

Results flagged for a closer look

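Of the named genes, 34 with 4 values were put to Dixon's test at 95%. With replicates 3 and 4 turned, 2 of them had an array far from the others, which chance gives for about 1 gene in 20. Osi17, one of the genes nearest to stau, was at -0.68 on replicate 3 and between -0.17 and -0.10 on the others (gap over range 0.88). As deposited its gap over range was 0.62, below the critical value. The helicase gene pit was at 0.52 on replicate 1 and between -0.51 and -0.36 on the others (0.86). As deposited its outlying array was replicate 2, at -0.51 with the others between 0.36 and 0.52 (0.85). None of bel, mub, orb2, stau and Tob had such an array with replicates 3 and 4 turned.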

How the results depend on the processing

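With replicates 3 and 4 as deposited, all 5 means had the opposite sign: -0.26 for bel, -0.65 for mub, -0.23 for orb2, 0.078 for stau and 0.10 for Tob. Under the other settings run (no centring, centring on listed genes, single spots, equal spread, median over arrays, 1 array left out, and, chosen after seeing the data, each dye orientation alone) every mean kept its sign. The moves are not judged by the SD. Leaving out 1 array, taking the median or taking an array pair cannot move a mean of 4 values beyond its SD. Leaving out 1 array gave 0.57 to 0.81 for bel, 0.56 to 1.04 for mub, 0.24 to 0.53 for orb2, -0.37 to -0.18 for stau and -0.43 to -0.30 for Tob. By dye orientation, orb2 was at 0.11 on replicates 1 and 2 and 0.57 on replicates 3 and 4, bel at 0.40 and 0.93 and mub at 0.15 and 1.455. The count of genes past limma's threshold, 2 of 1444, was 0 in the other reading, 1 with first spots, 0 with second spots (98 at an unadjusted p under 0.05), 1 among genes on 4 arrays, 4 with the dye term and 0 over single probes (174 unadjusted). Without 1 array it ranged between 0 (replicate 2, 66 unadjusted, or replicate 4, 60 unadjusted) and 18 (replicate 3), with 5 without replicate 1. The 4 genes past the threshold with the dye term included mub. That term takes up the split of mub by dye orientation, and mub was picked on its response. The call is therefore not a test of a change in mub. No other fit called any of the 5 genes. Of the 39 listed genes 0 passed in each of 6 alternatives run for them. The causes were not tested. No paired analysis was possible because each ratio already pairs the treated and untreated pool.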
